A study of Mus musculus with 12 samples.

Results

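The genes described here encode complement and acute-phase secreted proteins. They are Clu, C3, Cfb, Lcn2, Saa3, C1s1, C1ra, Cp and Hp, 9 of the 39017 genes in the deposited count table, and they were chosen by symbol. C1s1 is listed in that table as C1s and was matched by its Ensembl identifier, and the other 8 carry the same symbol. RNA was sequenced from 12 mouse lung tumours, 3 in each of 4 groups labelled KP, KP_PPARaDN, KPG1 and KPG1_PPARaDN. All mice were C57BL/6 and carried K-rasLSL-G12D/WT, p53Fl/Fl and CCSP-rtTA, and KPG1 mice had Glut1Fl/Fl in addition, a conditional allele of Slc2a1, the gene of the glucose transporter Glut1. All of them, controls included, received 6000 viral units of Lenti.TRE-PPARaD13_PGK-Cre through the trachea. Its PGK promoter drives Cre in infected cells, and its TRE promoter drives PPARaD13, a dominant negative form of the nuclear receptor PPARα, where rtTA and doxycycline meet. The rtTA gene is under the CCSP promoter, that of a club cell secretory protein. Mice of the 2 PPARaDN groups ate pellets with 625 mg/kg doxycycline for 15 days and the others a regular diet, so the effects of the diet and of the induced protein cannot be told apart. Tumours were taken 26 weeks after initiation, and RNA came from cells left after magnetic removal of CD45-positive immune cells. The age of the animals is not given in the sources used here.

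Complement is a chain of blood proteins that cut and activate each other on a target surface. C1ra and C1s1 encode the paired proteases that start the classical route, Cfb encodes the protease of the alternative route, both routes meet at C3, and clusterin, the product of Clu, is a chaperone that also holds back the terminal complex. Acute-phase proteins are secreted in larger amounts during inflammation, mainly by the liver but also by lung epithelium, under cytokines that act through C/EBP, NF-kB and STAT3. Among them, haptoglobin (Hp) binds free haemoglobin, ceruloplasmin (Cp) is a copper protein that oxidises iron, lipocalin 2 (Lcn2) binds the iron carriers of bacteria, and serum amyloid A3 (Saa3) is an apolipoprotein that is made outside the liver.

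The total count was 25263794 to 32654223 per tumour, and all 9 genes passed the filter on low counts that kept 16527 genes. Levels are given as CPM, the count of a gene scaled to a common library total after TMM normalization. By a number read as the mouse in the labels, the 12 tumours came from 9 mice, and in KP, KPG1 and KPG1_PPARaDN 2 of the 3 tumours share a mouse. All 3 KP tumours came from females and all 3 KPG1 tumours from males. In KP_PPARaDN 2 tumours came from males and 1 from a female, and in KPG1_PPARaDN 1 from a male and 2 from females. Slc2a1 was 41.7, 35.3 and 57.7 CPM in KP, 152, 115 and 108 in KP_PPARaDN, 30.2, 64.0 and 39.9 in KPG1 and 23.7, 53.2 and 54.5 in KPG1_PPARaDN, so the count of the whole gene did not set KPG1 apart from KP, and group names are the labels throughout. Ppara was 15.7, 10.5 and 9.54 CPM in KP and 2.71, 64.6 and 246 CPM in KP_PPARaDN, and it was 7.24, 10.5 and 15.3 CPM in KPG1 and 8.90, 19.2 and 17.7 CPM in KPG1_PPARaDN, which overlapped, with KPG1_PPARaDN replicate 1 below 2 of the 3 KPG1 tumours. The library labelled KP_PPARaDN replicate 1 was thus below every KP tumour, and whether reads of the transgene count for this gene is not given in the sources used here. KP replicate 2 stood apart in its cell type markers, with a summed level of 6 alveolar type 1 (AT1) markers of 198 CPM against 643 to 2825 CPM in the other 11 tumours.

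Windows of 250 bases before a transcription start were taken from RefSeq (GRCm38.p6, the same assembly as mm10), which matched 6 of the 9 genes with 8 windows. Of these, 3 are shown: those of C3 and C1s1, which had the largest differences between groups below, and that of Saa3, whose differences mostly had the other sign. Bases are in lower case except matches to TTGCNNAA on either strand, a C/EBP binding pattern, which are in capitals. The windows lie at chr17:57228137-57228386 for C3, chr6:124542360-124542609 for C1s1 (the second of its windows) and chr7:46715701-46715926 for Saa3, all on the minus strand, and the last is shown for 226 bases to leave out bases that GENCODE M21 places in an exon.
C3: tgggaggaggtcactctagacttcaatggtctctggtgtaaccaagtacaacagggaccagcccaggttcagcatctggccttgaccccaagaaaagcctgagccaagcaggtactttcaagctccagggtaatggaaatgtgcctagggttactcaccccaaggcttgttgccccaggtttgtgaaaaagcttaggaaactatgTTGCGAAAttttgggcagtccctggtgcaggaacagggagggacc
C1s1: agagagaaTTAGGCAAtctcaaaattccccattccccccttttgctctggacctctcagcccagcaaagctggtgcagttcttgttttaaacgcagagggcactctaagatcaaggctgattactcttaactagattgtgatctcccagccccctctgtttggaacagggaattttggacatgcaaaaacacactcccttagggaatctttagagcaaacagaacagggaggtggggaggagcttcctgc
Saa3: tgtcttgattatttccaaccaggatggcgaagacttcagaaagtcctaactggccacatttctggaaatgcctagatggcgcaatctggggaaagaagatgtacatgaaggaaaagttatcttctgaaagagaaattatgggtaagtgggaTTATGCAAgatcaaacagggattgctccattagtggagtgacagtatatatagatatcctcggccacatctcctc
The match in C3 spans bases 45 to 38 before the start, that in Saa3 bases 99 to 92 and that in C1s1 bases 242 to 235. TTGCNNAA was found in 5 of the 8 windows, which belong to C3, Lcn2, Saa3, C1s1 and Cp, and in 9.56% of 32851 RefSeq windows of the same length. The matches of Lcn2 and Cp lie inside the genes as GENCODE M21 draws them. An NF-kB pattern (3 G, 3 free bases and TTCC) and the STAT pattern TTCNNNGAA were in none of the 8 windows and in 4.65% and 7.02% of all windows. Both strands were searched, no match overlapped one of another pattern, and the matches are of letters and say nothing of binding.

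Levels of different genes were compared only per exon length, as TPM computed with GENCODE M21 exons. Clu led with a mean of 7062 TPM, the gene of rank 4 among the 37607 genes with TPM, followed by Hp at 899 TPM, Lcn2 at 616 TPM and C3 at 148 TPM. The proteases were far lower, with C1ra at 28.2 TPM, C1s1 at 21.3 TPM and Cfb at 3.89 TPM, while Cp had 10.2 TPM and Saa3 1.36 TPM. The 9 genes varied more between tumours than most. The SD of log2 CPM over the 12 tumours was 0.91 for C1ra to 1.67 for C3, against a median of 0.45 over the genes tested, which placed each of the 9 above the 81st percentile. The plot of CPM by tumour shows all 9.

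**Figure D1:**
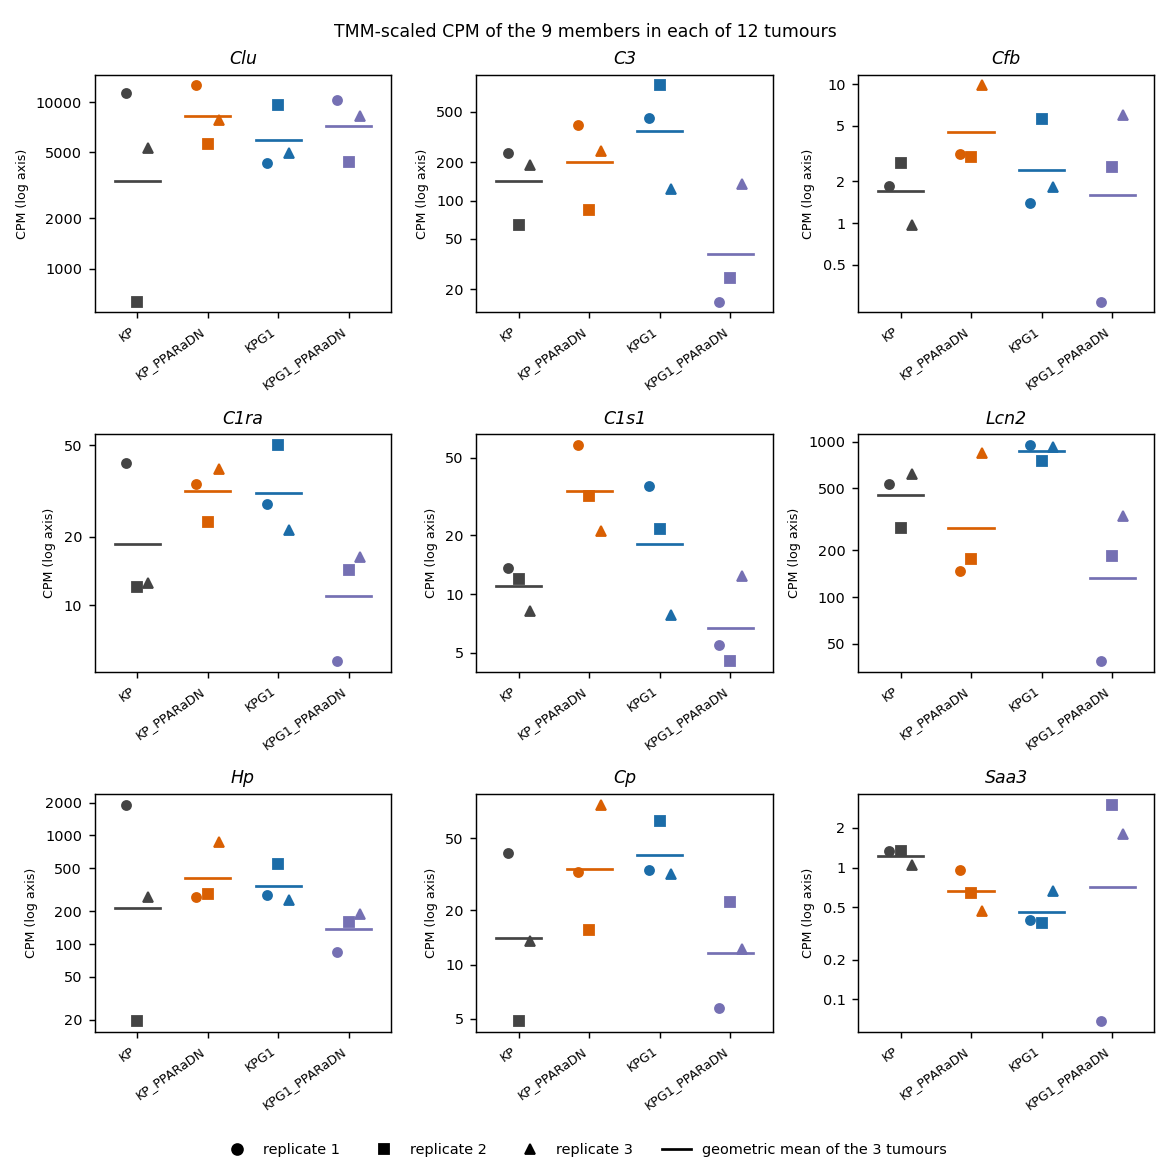
CPM after TMM scaling (log axis) of each of the 9 genes by group. Each symbol is 1 tumour, with its shape giving the replicate number, and the line is the geometric mean of 3 tumours. C3, Lcn2, C1s1, C1ra, Cp and Hp, and by a small margin Cfb, have their lowest line in KPG1_PPARaDN. KP replicate 2 is the lowest tumour of all for Clu, Hp and Cp.

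C1ra and C1s1 lie side by side on chromosome 6, C1ra at 124512405 to 124523443 on the plus strand and C1s1 at 124530345 to 124542359 on the minus strand (mm10), with 6901 bases and no other annotated gene between them. C1s1 was 13.7, 11.9 and 8.18 CPM in the 3 KP tumours and 57.8, 31.8 and 20.9 CPM in the 3 KP_PPARaDN tumours. In KPG1 it was 35.7, 21.4 and 7.77 CPM, and in KPG1_PPARaDN 5.46, 4.51 and 12.3 CPM. Every KP_PPARaDN tumour was thus above every KP tumour and every KPG1_PPARaDN tumour, whereas KPG1 overlapped KPG1_PPARaDN through its replicate 3. C1ra was 42.0, 12.01 and 12.6 CPM in KP and 34.0, 23.2 and 39.6 CPM in KP_PPARaDN. It was 27.8, 50.1 and 21.3 CPM in KPG1 and 5.70, 14.3 and 16.3 CPM in KPG1_PPARaDN. Here the KPG1_PPARaDN tumours lay below all KPG1 and all KP_PPARaDN tumours, and only KP overlapped them. The near-copies C1rb and C1s2 were at most 0.21 and 0.56 CPM, and Gm16567, which overlaps 576 exon bases of C1s1 on the other strand, had at most 1 count in any tumour.

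C3 (chromosome 17, 57203970 to 57228136, minus strand) was 236, 64.7 and 189 CPM in KP and 390.4, 84.7 and 247 CPM in KP_PPARaDN. In KPG1 it was 448, 806 and 124 CPM, against 16.1, 24.7 and 136 CPM in KPG1_PPARaDN. KPG1 held the 2 highest tumours of the 12 and KPG1_PPARaDN the 2 lowest, 50.2-fold apart at the extremes, but KPG1 replicate 3 lay below KPG1_PPARaDN replicate 3. Cfb (chromosome 17, 34856374 to 34862518, minus strand) was low throughout. Its CPM was 1.85, 2.70 and 0.97 in KP, 3.15, 3.00 and 9.78 in KP_PPARaDN, 1.40, 5.61 and 1.82 in KPG1 and 0.27, 2.53 and 5.97 in KPG1_PPARaDN. KP_PPARaDN tumours were all above KP tumours, and the KPG1_PPARaDN tumours spread over much of the range. Gm20547, which shares 2246 exon bases with Cfb, is listed at 0 in all tumours.

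Clu (chromosome 14, 65968483 to 65981547, plus strand) took up to 1.26% of all counts in a tumour. It was 11451, 633 and 5309 CPM in KP, 12649, 5631 and 7802 CPM in KP_PPARaDN, 4329.5, 9692 and 4924 CPM in KPG1 and 10261, 4374 and 8292 CPM in KPG1_PPARaDN. The 4 groups overlapped, and 11 of the 12 tumours lay within the range from KPG1 replicate 1 to KP_PPARaDN replicate 1. The exception was KP replicate 2, which shares its mouse with KP replicate 1, the second highest tumour.

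Hp (chromosome 8, 109575128 to 109579172, minus strand) had the widest range of the 9, 97.8-fold, and both of its extremes were in that mouse. It was 1901, 19.4 and 273 CPM in KP and 269, 291 and 868 CPM in KP_PPARaDN. In KPG1 it was 282, 549.8 and 257 CPM and in KPG1_PPARaDN 84.4, 159 and 190.1 CPM, so that KPG1_PPARaDN lay below all KPG1 and all KP_PPARaDN tumours. Cp (chromosome 3, 19957054 to 20009145, plus strand) was 41.3, 4.85 and 13.5 CPM in KP, 32.4, 15.5 and 76.1 CPM in KP_PPARaDN, 33.4, 62.5 and 31.5 CPM in KPG1 and 5.73, 22.2 and 12.1 CPM in KPG1_PPARaDN. All KPG1_PPARaDN tumours were below all KPG1 tumours. Hps3 overlaps 108 exon bases of Cp on the other strand, with 490 to 889 counts of its own. The library kit marks strand, but whether the counting used it is not given in the sources used here.

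Lcn2 (chromosome 2, 32384633 to 32388252, minus strand) was 536, 277 and 622 CPM in KP and 148, 175 and 849 CPM in KP_PPARaDN. The KPG1 tumours were close to each other at 948, 747 and 919.9 CPM, and the KPG1_PPARaDN tumours had 38.5, 184 and 334 CPM. KPG1 lay above KP and above KPG1_PPARaDN without overlap. Saa3 (chromosome 7, 46711998 to 46715700, minus strand) had 2 to 93 counts per tumour. It was 1.34, 1.33 and 1.04 CPM in KP, 0.96, 0.65 and 0.47 CPM in KP_PPARaDN, 0.40, 0.38 and 0.66 CPM in KPG1 and 0.068, 2.98 and 1.79 CPM in KPG1_PPARaDN. KP lay above KP_PPARaDN and above KPG1, and KPG1_PPARaDN held the lowest tumour and the 2 highest. Its relatives Saa1 and Saa2 were at most 0.07 CPM each.

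No member passed an adjusted p of 0.05 in any of 7 comparisons by edgeR's quasi-likelihood test. Over all 16527 genes, 0.00605% passed in KP_PPARaDN against KP, 0.00605% in KPG1_PPARaDN against KPG1, 0.0363% in KPG1 against KP, 0.0303% in KPG1_PPARaDN against KP_PPARaDN, 0% for the difference between the genotypes in the effect of PPARaDN, 0.0182% for PPARaDN averaged over genotypes and 0.0484% for the genotype averaged over diets. Calls at an unadjusted p under 0.05 are therefore given as descriptions beside their share over all genes. The members were chosen with earlier results of these data known, so a count above that share tests no excess. Because RNA came from bulk cell fractions, fewer cells of a type and less RNA per cell cannot be told apart in any of these values. The groups are shared between comparisons, so a low KPG1_PPARaDN value enters several of them. The plot of log2 fold changes gives each with its interval.

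**Figure D2:**
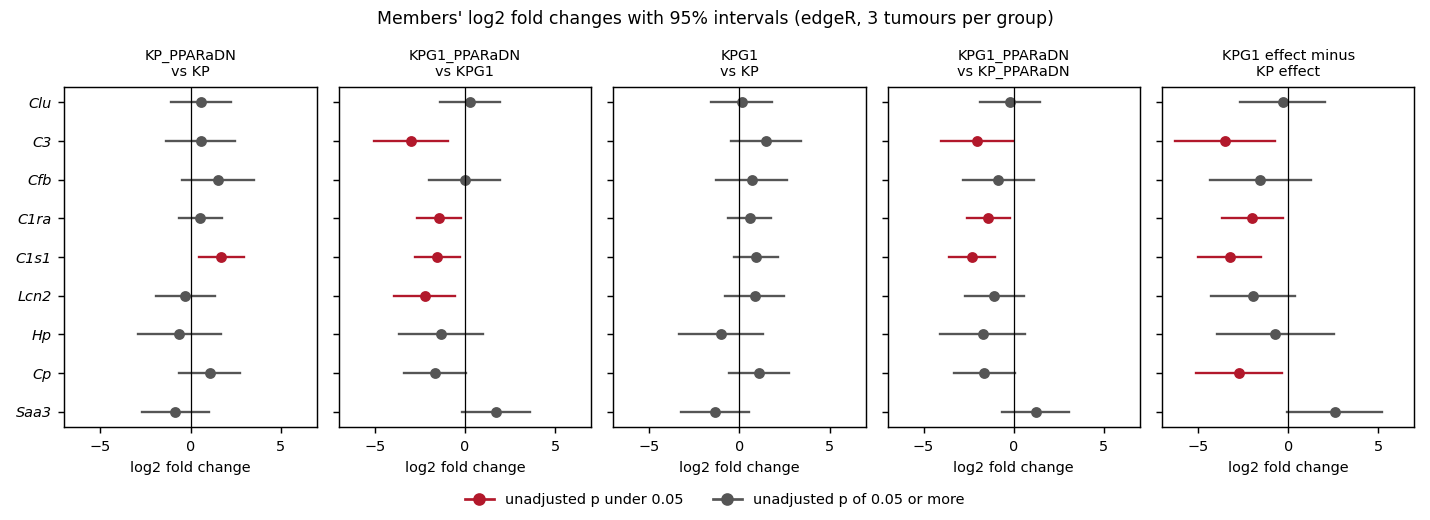
Log2 fold change of each of the 9 genes (points) with its 95% interval (lines) in 4 comparisons of groups and for the effect of PPARaDN in KPG1 minus that in KP, with red for an unadjusted p under 0.05. The whole intervals of C3, C1ra and C1s1 lie left of 0 in both panels with KPG1_PPARaDN and in the difference. The points of Lcn2, Cp, Hp and Cfb also lie left of 0 there, but not all their intervals do. The points of Saa3 lie right of 0 in these 3 panels, and its intervals cross 0.

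Between KPG1_PPARaDN and KPG1, the contrast of diet and dominant negative receptor in tumours with floxed Slc2a1, 7 of the 9 genes had a lower mean, as had 47.8% of all genes. Among them 4 had an unadjusted p under 0.05, against 4.5% of all genes lower and 6.25% higher, and 4 did not overlap between the groups, against 9.41% of all genes lower and 11.2% higher. The median log2 fold change of the 9 was −1.45 and that of all genes 0.02. C3 had the largest difference, −2.97 ± 0.94 (log2 fold change ± SE, adjusted p = 0.42 by edgeR), followed by Lcn2 at −2.23 ± 0.78 (adjusted p = 0.42). C1s1 was at −1.54 ± 0.57 (adjusted p = 0.42) and C1ra at −1.45 ± 0.55 (adjusted p = 0.422). DESeq2 called C3 (log2 fold change −2.98, adjusted p = 0.0293) and no other member, among 211 genes that it called in this comparison. Cp at −1.67 ± 0.78 and Hp at −1.33 ± 1.07 did not overlap between the groups but had an unadjusted p above 0.05, as had Saa3, whose difference was 1.74 ± 0.86. Cfb and Clu were at −0.01 ± 0.90 and 0.28 ± 0.76. Without KPG1_PPARaDN replicate 1, the lowest of the 12 tumours for 5 of the 9 genes, 2 members were lower at an unadjusted p under 0.05 and C3 was at −2.52, and with sex as a covariate 1 member was.

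Between KP_PPARaDN and KP, the same contrast with intact Slc2a1, 6 of the 9 genes had a higher mean and 3 a lower one, where 50.8% of all genes were lower, and the median log2 fold change was 0.56 against −0.01 over all genes. C1s1 differed most clearly, at 1.71 ± 0.57 (adjusted p = 0.333 by edgeR). It was the only member with an unadjusted p under 0.05, where 5.32% of all genes were higher and 6.03% lower at that level. C1s1 and Cfb, the latter at 1.53 ± 0.92, did not overlap between the groups with KP_PPARaDN higher, as for 6.55% of all genes, and Saa3, at −0.84 ± 0.84, did not overlap with KP_PPARaDN lower, as for 6.7%. Cp was at 1.06 ± 0.76, while C3, Clu and C1ra were at 0.56 ± 0.87, 0.58 ± 0.76 and 0.54 ± 0.54. Lcn2 was at −0.29 ± 0.74 and Hp at −0.62 ± 1.06. Without the library labelled KP_PPARaDN replicate 1, whose Ppara level is below that of KP, C1s1 was at 1.23 and no member was higher at an unadjusted p under 0.05, whereas without KP replicate 1, 3 members were. Hp changed its sign, to 1.70, without KP replicate 1, and Cp changed its sign, to −0.188, with sex as a covariate.

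The effect of PPARaDN in KPG1 minus that in KP was tested as an interaction. It was negative for 8 of the 9 genes and for 48.3% of all genes, with a median of −1.94 over the 9. Its unadjusted p was under 0.05 for 4 of them, where 4.94% of all genes were negative and 6.87% positive at that level. These were C1s1 at −3.25 ± 0.81 (adjusted p = 0.33 by edgeR), C3 at −3.53 ± 1.27 (adjusted p = 0.365), Cp at −2.72 ± 1.09 and C1ra at −1.99 ± 0.77. DESeq2 called C1s1 (−3.28, adjusted p = 0.00804) among 286 genes. Saa3 had the only positive difference, 2.57 ± 1.20 (adjusted p = 0.43 by edgeR). The count of 4 became 2 without KP replicate 3, KP_PPARaDN replicate 3, KPG1 replicate 2 or KPG1_PPARaDN replicate 1, and 1 with sex as a covariate. The share of males was higher with PPARaDN in KP and lower with PPARaDN in KPG1. Sex therefore cannot be fully told apart from either effect or from their difference.

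Between KPG1 and KP, both on a regular diet, 7 of the 9 genes had a higher mean, where 53.1% of all genes were lower. No member had an unadjusted p under 0.05 by edgeR, against 2.42% of all genes higher and 3.81% lower, but 2 were higher at that level without KP replicate 1. The largest differences were C3 at 1.49 ± 0.89, Saa3 at −1.36 ± 0.86 and Cp at 1.09 ± 0.76. With sex as a covariate Cp turned to −0.466, and Hp, at −1.01 ± 1.06, turned to 1.31 without KP replicate 1 and to 0.652 with limma voom. Lcn2, at 0.87 ± 0.75, did not overlap with KPG1 higher, as for 4.82% of all genes, and Saa3 did not overlap with KPG1 lower, as for 5.13%. Genotype and sex cannot be told apart in these 6 tumours.

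Between KPG1_PPARaDN and KP_PPARaDN, 8 of the 9 genes had a lower mean, as had 49.5% of all genes, and 3 had an unadjusted p under 0.05, where 4.44% of all genes were lower and 5.25% higher at that level. C1s1 was at −2.31 ± 0.58 (adjusted p = 0.462 by edgeR and 0.0106 by DESeq2), C3 at −2.03 ± 0.90 and C1ra at −1.42 ± 0.55. DESeq2 called 155 genes in this comparison. Lcn2, at −1.07 ± 0.75, turned to 0.204 without KP_PPARaDN replicate 3. C1s1, C1ra and Hp did not overlap between these groups, against 7.25% of all genes lower and 10.3% higher. The count of 3 became 1 without KP_PPARaDN replicate 1, KP_PPARaDN replicate 3 or KPG1_PPARaDN replicate 1, 5 without KP replicate 2, and 1 with sex as a covariate. Averaged over both genotypes, where 48.9% of all genes were lower with PPARaDN, Lcn2 was at −1.26 ± 0.53 (adjusted p = 0.456 by edgeR). It was the only member with an unadjusted p under 0.05, against 4.91% of all genes lower and 5.14% higher. Averaged over diets, the fitted log2 fold change with floxed Slc2a1 was below 0 for all 9, as for 52.2% of all genes, from −1.37 ± 0.76 for Hp to −0.03 ± 0.54 for Clu. None of them had an unadjusted p under 0.05, against 2.37% of all genes lower and 2.15% higher.

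The members varied together across tumours to different degrees. Of 36 pairs, 31 had a Pearson r above 0 for log2 CPM over the 12 tumours and 15 an r above 0.5, with a median of 0.447. The share over pairs of all genes was not computed, so these counts do not set the members apart from other genes. C1ra and Cp, on different chromosomes, were the closest pair, with r = 0.891 and rho = 0.916 (permutation p = 6e-05 and 9e-05, adjusted p = 0.00216 and 0.00324). Their r was 0.851 after group means had been removed and 0.841 without the 2 tumours farthest from the median of C1ra. C3 and C1ra had r = 0.839 and rho = 0.818 (permutation p = 0.00057 and 0.00191, adjusted p = 0.00684 and 0.0172), and r was 0.716 within groups and 0.737 without 2 tumours. Cp and Hp had r = 0.837 and rho = 0.825 (permutation p = 0.00039 and 0.00161, adjusted p = 0.00684 and 0.0172), and r was 0.861 within groups and 0.656 without 2 tumours. The neighbours C1s1 and C1ra had r = 0.673 and rho = 0.699 (permutation p = 0.0168 and 0.0141, adjusted p = 0.0671 and 0.0634), and r was 0.345 within groups and 0.685 without 2 tumours. C3 and Cfb, partners in the alternative route, had r = 0.491 and rho = 0.35 (permutation p = 0.104 and 0.264, adjusted p = 0.235 and 0.46), and r was 0.52 within groups and 0.127 without 2 tumours. Lcn2 and Saa3 had r = 0.204 and rho = −0.168 (permutation p = 0.516 and 0.603, adjusted p = 0.663 and 0.658), and r was 0.528 within groups, −0.666 without 2 tumours and −0.595 without KPG1_PPARaDN replicate 1 alone, the lowest tumour for both. Adjusted values are Benjamini-Hochberg values over the 36 pairs. Tumours that share a mouse are not independent, which makes these p-values too small. In the plot of correlations Saa3 has no r above 0.42 with another member. Within groups its r ranged from −0.209 with Clu to 0.642 with Cfb.

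**Figure D3:**
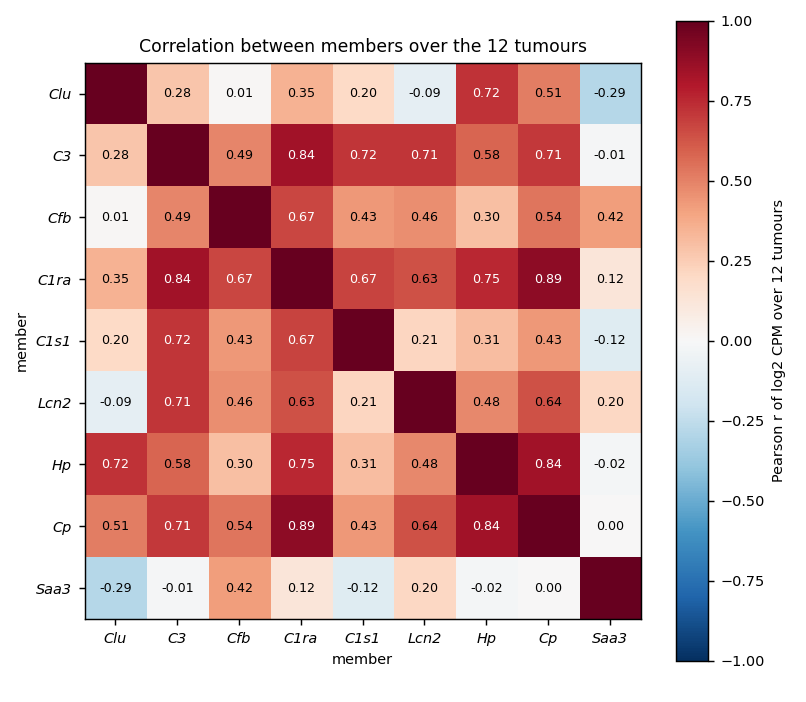
Pearson r of log2 CPM over 12 tumours for each pair of the 9 genes, from −1 (blue) to 1 (red), with the value printed in each square. C3, C1ra, Hp and Cp are correlated with each other at 0.58 to 0.89, and Saa3 lies between −0.29 and 0.42 with every other member.

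Among 14108 genes with a mean of at least 1 CPM, the genes whose log2 CPM was most like that of Lcn2 over the 12 tumours were Lamp3 (r = 0.963), H2-DMa (0.944) and Slc34a2 (0.94). Lamp3, a lamellar body protein, and Slc34a2, a phosphate transporter, are markers of alveolar type 2 (AT2) cells, and H2-DMa acts in peptide loading of class II molecules. Cfb was most like the airway mucin Muc5b (r = 0.941), Myo7a (0.914) and Gm4875 (0.897), and Hp most like the sodium channel subunit Scnn1a (0.955), the matrix protein nephronectin, Npnt (0.944), and Lpin2 (0.937). The chemokine Cx3cl1 was among the 3 genes most like C1ra (0.95, beside Skiv2l and 2510002D24Rik) and the 3 most like Cp (0.954, beside Itfg3). Clu had AA986860 (0.963), Mgst3 (0.946) and 2310007B03Rik (0.932), and C3 had Zfp706 (0.953), Nek7 (0.942) and Nudcd1 (0.932). C1s1 had Gm6368 (0.929), 1110004E09Rik (0.926) and Stub1 (0.922), and Saa3 had Akna (0.826), A930007I19Rik (0.826) and Purb (0.811). These are the highest values among all those genes and describe 12 tumours only.

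Cell type markers moved with some of these results. The summed level of 10 AT2 markers was 48480 to 77690 CPM in KPG1 and 26130 to 41030 CPM in KPG1_PPARaDN without overlap, 7 of the 10 did not overlap between these groups, against 9.41% of all genes lower and 11.2% higher, and 9 had a lower mean, as had 47.8% of all genes. Over the 12 tumours the AT2 sum had r = 0.851 with Lcn2 but −0.101 with C1s1, and the AT1 sum had r = 0.906 with Hp and 0.824 with Cp. The positive values here are the highest over all marker lists and members. Lcn2 also had r = 0.64 with the summed leukocyte markers and 0.627 with the summed endothelial markers. The AT1 sum was 1707 to 2386 CPM in KPG1 and 643 to 1061 CPM in KPG1_PPARaDN. Of its 6 markers, 3 did not overlap between these groups, against 9.41% of all genes lower. The 6 fibroblast markers summed to 112.6 to 241.4 CPM in KP and 265.9 to 529.1 CPM in KP_PPARaDN, the comparison in which C1s1 had a higher mean, and their r with C1s1 was 0.568. Of these 6, 3 did not overlap with KP_PPARaDN higher, against 6.55% of all genes. In KPG1_PPARaDN against KP_PPARaDN, where C1s1, C1ra and Hp did not overlap, the AT1 sum was 643 to 1061 against 1452 to 2825 CPM and the fibroblast sum 126.9 to 183.3 against 265.9 to 529.1 CPM. In that comparison 2 of the 6 AT1 and 3 of the 6 fibroblast markers did not overlap with KPG1_PPARaDN lower, against 7.25% of all genes. There the sum of 5 mesothelial markers was 386.5 to 525.9 against 739.2 to 989.7 CPM. Of the 4 tested, 1 did not overlap with KPG1_PPARaDN lower, against 7.25% of all genes, and 1 had a higher mean. Krt19 and Msln, with means of 406 and 86.2 CPM over the 12 tumours, made up most of that sum. The means of Upk3b, Lrrn4 and Wt1 were 0.68, 0.23 and 0.05 CPM. No marker of these lists was at 0 in every tumour, and the part of these cells in the results, neutrophils included, was not tested. The 9 neutrophil markers, whose cells store lipocalin 2 and haptoglobin, summed to 1.29 to 11.4 CPM, with 5 of them under 1 CPM in all 12 tumours. Their sum was 1.29 to 1.99 CPM in KPG1_PPARaDN and 4.29 to 11.4 CPM in KP_PPARaDN, and 3 of the 4 tested were lower at an unadjusted p under 0.05 there, against 4.44% of all genes. Over the 12 tumours it had r = 0.687 with Hp but 0.297 with Lcn2, and 0.662 with C1ra and 0.639 with Cp. The plot of Lcn2 against the AT2 sum shows the tumours.

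**Figure D4:**
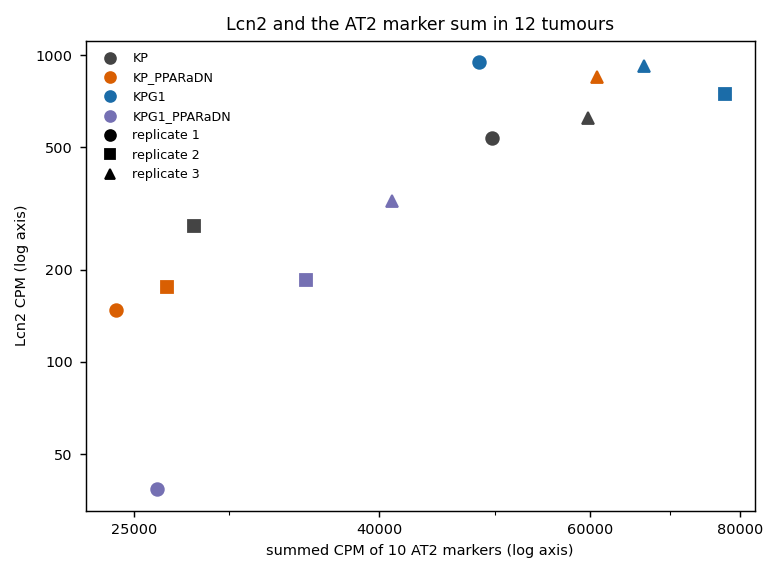
Lcn2 CPM against the summed CPM of 10 AT2 markers (both axes logarithmic) in 12 tumours, with colour giving the group and shape the replicate number. The 3 KPG1 tumours and KP_PPARaDN replicate 3 lie at the upper right, and KPG1_PPARaDN replicate 1 lies lowest at 38.5 CPM.

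Other genes of the pathway were taken from 7 lists, in which no gene had an adjusted p under 0.05 by edgeR in any comparison. Of 17 further genes that start complement, 13 were tested, and 5 of them had a higher and 8 a lower mean in KPG1_PPARaDN than in KPG1, where 47.8% of all genes were lower. Of the higher 2 and of the lower none had an unadjusted p under 0.05, against 6.25% and 4.5% of all genes. C4b, cleaved by the C1s protease, was 90.6, 60.1 and 41.3 CPM in KPG1 and 4.196, 22.5 and 13.5 CPM in KPG1_PPARaDN without overlap, with a log2 difference of −2.26 ± 1.14 (adjusted p = 0.508). Properdin (Cfp), which stabilises the alternative protease, had 2.96, 4.23 and 3.90 CPM against 9.65, 7.36 and 6.50 CPM, a log2 difference of 1.08 ± 0.29 (adjusted p = 0.42). Mbl1, a lectin that starts a further route, was at −1.37 ± 0.51 in KP_PPARaDN against KP (adjusted p = 0.367), and C4a, the close copy of C4b whose reads may be shared with it, was at 1.03 ± 0.42 (adjusted p = 0.403). C1qa, C1qb and C1qc, the chains with which both proteases form C1, were at most 9.31 CPM.

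Of the 7 terminal components, 3 were tested. Hc, which encodes C5, had a mean of 422 CPM, C6 had 42.0 CPM and C8g 1.12 CPM. C6 was at −1.96 ± 1.05 in KP_PPARaDN against KP (adjusted p = 0.516) and −2.04 ± 1.06 in KPG1_PPARaDN against KPG1 (adjusted p = 0.518). Among 9 inhibitors, 8 were tested, 7 of which had a lower mean in KPG1_PPARaDN than in KPG1, as had 47.8% of all genes. None of the 7 had an unadjusted p under 0.05, and all of them overlapped between the groups. Cfi, which cleaves C3b, and the membrane inhibitor Cd55 were at −0.21 ± 0.64 and −0.66 ± 0.47 in that comparison, and Cr1l and Serping1 at −0.02 ± 0.23 and −0.49 ± 0.41. Cd59a, which blocks the terminal complex, had the opposite sign, with 6.80, 0.14 and 2.58 CPM in KPG1 against 95.9, 26.5 and 26.8 CPM in KPG1_PPARaDN, a log2 difference of 3.98 ± 0.97 (adjusted p = 0.42). In KP it was 17.4, 9.55 and 25.4 CPM, above all KPG1 tumours (−2.46 ± 0.92 for KPG1 against KP, adjusted p = 0.785). Of 7 receptors, 5 were tested and none of these had an unadjusted p under 0.05 in the 4 comparisons of groups, while C5ar1 was at −1.72 ± 0.74 with the genotype averaged over diets (unadjusted p = 0.0403, adjusted p = 0.976 by edgeR). Itgam and Itgax, chains of integrin receptors for C3 fragments, had means of 8.03 and 6.80 CPM, and the anaphylatoxin receptor genes C5ar1, C5ar2 and C3ar1 ranged in log2 fold change from −2.11 to 0.84 over those comparisons.

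Of 31 other acute-phase genes, 24 were tested, and 10 of them had a higher and 14 a lower mean in KPG1_PPARaDN than in KPG1, where 47.8% of all genes were lower. At an unadjusted p under 0.05, 3 were higher and 1 lower, against 6.25% and 4.5% of all genes. Among the 3 were Ahsg at 4.73 ± 1.62 and Serpina1b at 6.39 ± 2.2 (adjusted p = 0.42 by edgeR for each), and the 1 was Trf. Trf, the iron carrier transferrin, was 603, 1109 and 470.0 CPM in KPG1 and 74.2, 251 and 297 CPM in KPG1_PPARaDN without overlap (−1.81 ± 0.60, adjusted p = 0.42), and it was 348, 159 and 267 CPM in KP. Albumin (Alb) and the metal-binding Mt2 were at −0.61 ± 0.67 and −1.64 ± 0.87 in the same comparison. Ahsg, Serpina1b and Serpina1a, secreted mainly by the liver, were under 2 CPM in at least 10 of the 12 tumours, and their highest values were 10.5 CPM in KP replicate 2, 6.21 CPM in KPG1_PPARaDN replicate 2 and 23.4 CPM in KP replicate 2. Of 12 iron and haem partners, 11 were tested and all 11 had a lower mean in KPG1_PPARaDN than in KPG1, as had 47.8% of all genes, with a median log2 fold change of −0.38 and 3 at an unadjusted p under 0.05, against 4.5% of all genes. These were Steap4, a metal reductase, at −4.17 ± 1.28, Lrp2, the endocytic receptor megalin, which takes up lipocalin 2, at −2.20 ± 0.76, and the ferritin chain Fth1 at −0.96 ± 0.40, with adjusted p of 0.42, 0.42 and 0.437. The ferritin chain Ftl1 was at −0.19 ± 0.23. Slc22a17, a receptor of lipocalin 2, was at −0.95 ± 0.32 in KP_PPARaDN against KP (adjusted p = 0.334).

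All 29 acute-phase signalling genes were tested. In KP_PPARaDN 22 had a higher mean than in KP, where 50.8% of all genes were lower. Their median log2 fold change was 0.50 against −0.01 over all genes. At an unadjusted p under 0.05, 7 were higher and 1 lower, against 5.32% and 6.03% of all genes. In KPG1_PPARaDN 24 had a lower mean than in KPG1, as had 47.8% of all genes, with a median of −0.42 against 0.02 over all genes. At that level 3 were lower and none higher, against 4.5% and 6.25% of all genes. The interaction was negative for 25, and for 48.3% of all genes, with a median of −0.95 against 0.03 over all genes. At that level 8 were negative and 1 positive, against 4.94% and 6.87% of all genes. Nfkbiz, a nuclear cofactor of NF-kB, was 61.4, 16.04 and 30.0 CPM in KP, 92.8, 55.8 and 91.2 CPM in KP_PPARaDN, 36.3, 46.4 and 41.0 CPM in KPG1 and 26.8, 23.0 and 21.1 CPM in KPG1_PPARaDN. KPG1_PPARaDN was below KPG1 and below KP_PPARaDN without overlap. The log2 difference between the PPARaDN groups was −1.76 ± 0.40 (adjusted p = 0.462) and the interaction −1.96 ± 0.56 (adjusted p = 0.335). Tnfaip3, an inhibitor of the same pathway, had an interaction of −1.65 ± 0.56 (adjusted p = 0.351) and the cytokine gene Tnf one of −3.89 ± 1.27 (adjusted p = 0.351). The transcription factor gene Cebpa was 480.1, 493 and 335 CPM in KPG1 and 214, 274 and 262 CPM in KPG1_PPARaDN (−0.80 ± 0.29, adjusted p = 0.42). Its difference in KP was −0.60 ± 0.29 (adjusted p = 0.472). Stat3 was at −0.42 ± 0.29 and 0.12 ± 0.29 in the same 2 comparisons, and Il6st, the shared receptor chain of the interleukin 6 family, at −0.01 ± 0.28 and −0.35 ± 0.28. The plot of related genes gives 6 of these by tumour.

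**Figure D5:**
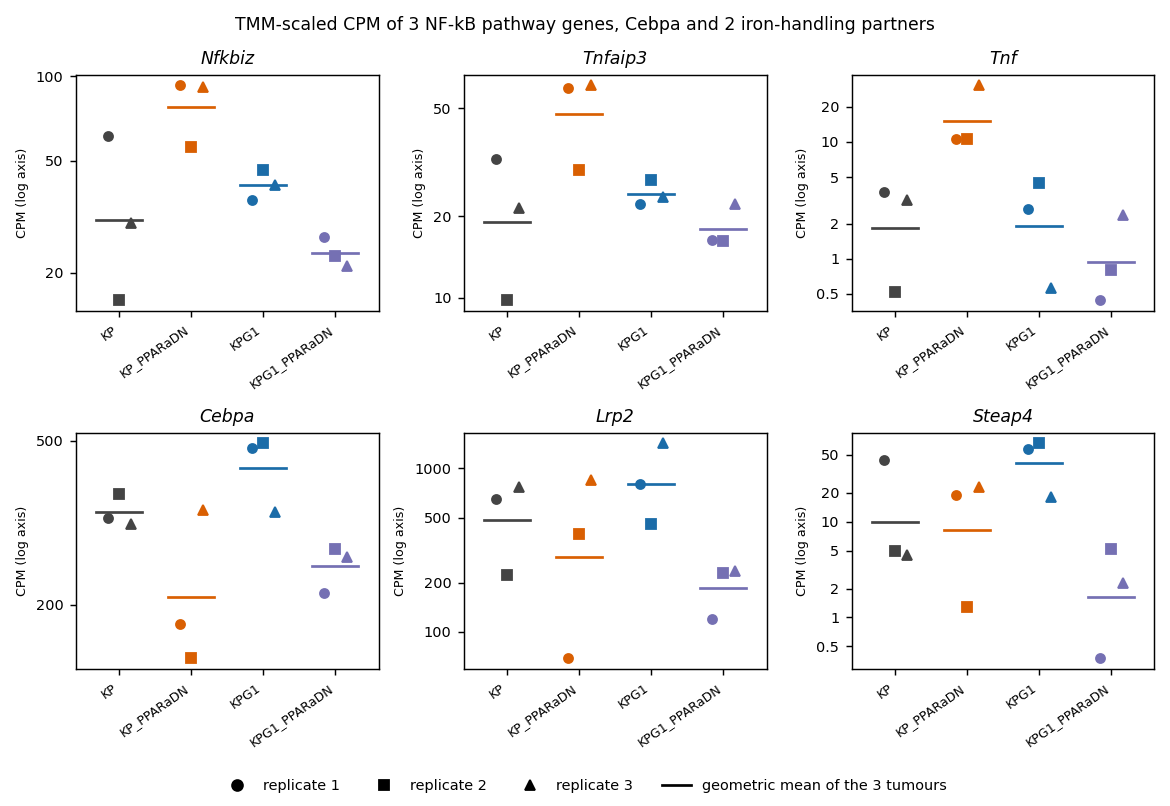
CPM after TMM scaling (log axis) of Nfkbiz, Tnfaip3, Tnf, Cebpa, Lrp2 and Steap4 by group. Each symbol is 1 tumour, with its shape giving the replicate number, and the line is the geometric mean of 3 tumours. Nfkbiz, Tnfaip3 and Tnf have their highest line in KP_PPARaDN, and Cebpa, Lrp2 and Steap4 are lower in all KPG1_PPARaDN tumours than in any KPG1 tumour.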

How the data were processed

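The authors made libraries from poly(A) RNA with a stranded kit and deposited, per gene and tumour, the raw count of reads. The submitters' processing notes name bcl2fastq 2.17, cutadapt 1.4.2, HISAT2, featureCounts 1.4.4, edgeR and mm10, and the annotation is not given in the sources used here. A deposited table of log2 values was not used.

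From the counts, 16527 genes kept by filterByExpr were fitted with edgeR 4.0.16 (TMM, glmQLFit, glmQLFTest, 12 tumours in 1 fit, 8 residual degrees of freedom) under R 4.3.3, with Benjamini-Hochberg adjustment at 0.05. An SE is the absolute fold change (log2) over the root of F, and intervals are 95%. Correlations used log2 CPM with a prior count of 2 and 100000 permutations. P-values measure the spread between tumours. The fit took the 12 tumours as independent although they came from 9 mice, which can make its SE and p-values too small. Chi-square per degree of freedom was at least 88.2 between tumours of 1 group, so none was a repeated library. The fit was tested on simulated data. TPM, positions and exon overlaps used GENCODE M21, which held 96.4% of the identifiers and 99.8% of the counts. Figures were drawn with matplotlib 3.10.9.

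Members and gene lists were chosen with earlier results of these data known. The rule for naming took all members, up to 3 genes per list by mean CPM and up to 3 by smallest p in any comparison, and 3 look-alike genes per member, of which 2 genes are not reported here. Beyond it, the C1q chains, near-copies, overlapping genes and single mesothelial markers were named after their values were seen. Alternatives were DESeq2 1.42.0, limma 3.58.1 voom, other scaling factors and count filters, sex as a covariate, a replicate block, tumours of 1 mouse summed and leaving out each tumour.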

Additional observations from a re-analysis of the deposited data

How the results depend on the processing

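No member passed an adjusted p of 0.05 under limma voom, other scaling or filters, sex as a covariate, the replicate block, summed mice or leaving out any 1 tumour. DESeq2 called 1 member each in KPG1_PPARaDN against KPG1, in KPG1_PPARaDN against KP_PPARaDN and in the difference of effects. Over all genes, edgeR called 1, 1, 6, 5, 0, 3 and 8 genes (KP_PPARaDN against KP, KPG1_PPARaDN against KPG1, KPG1 against KP, KPG1_PPARaDN against KP_PPARaDN, the difference, PPARaDN averaged and genotype averaged) and DESeq2 372, 211, 60, 155, 286, 288 and 39. Same-numbered tumours did not deviate together (18 pairs, r −0.19 to 0.127, 2 over 0.1, and 1 of 12 tumours correlated best with its own number), so the numbers do not pair them, and the replicate block gave 0 genes in KP_PPARaDN against KP, 2 in KPG1_PPARaDN against KPG1, 3 in KPG1_PPARaDN against KP_PPARaDN and 5 for genotype averaged. With sex, counts were 0 (KP_PPARaDN against KP), 2 (KPG1 against KP) and 2 (KPG1_PPARaDN against KP_PPARaDN). With summed mice they were 0 in both PPARaDN comparisons, 2 in both genotype comparisons and 3 for genotype averaged. Without a filter they were 2 (KP_PPARaDN against KP) and 5 (PPARaDN averaged), with a mean of at least 1 CPM 3 (KPG1 against KP) and with voom 0 (KPG1_PPARaDN against KPG1). Leaving out 1 tumour gave 0 to 1, 0 to 2, 2 to 6 and 2 to 10 genes for the 4 comparisons of groups in the order above and 2 to 13 for PPARaDN averaged.

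Signs of some log2 fold changes turned, among them Cp and Hp in KPG1 against KP, and the cause was not tested. With voom, Hp was 0.91 in KP_PPARaDN against KP and 0.652 in KPG1 against KP, Saa3 −0.0867 with PPARaDN averaged, and Clu 0.301 and Cp 0.0216 with genotype averaged. With sex, Cp was −0.188 in KP_PPARaDN against KP and −0.466 in KPG1 against KP, Cfb 0.289 in KPG1_PPARaDN against KPG1, and Hp 0.137 in the difference. With the replicate block, Clu was −0.0229 in KPG1_PPARaDN against KPG1, and Clu 0.237 and Lcn2 0.0117 with genotype averaged, and the block changed no call on a member. With summed mice, Cfb was 0.0748 in KPG1_PPARaDN against KPG1, where upper-quartile factors gave 0.0129, Saa3 0.164 with genotype averaged, and r of Lcn2 and Saa3 −0.557. Leaving out 1 tumour turned further signs. In KP_PPARaDN against KP, Hp ranged from −1.39 to 1.7 and Lcn2 from −1.57 to 0.0965. In KPG1_PPARaDN against KPG1, Cfb ranged from −1.07 to 0.83. In KPG1 against KP, Hp ranged from −1.58 to 1.31, Clu from −0.408 to 1.09 and Cfb from −0.17 to 1.06. In KPG1_PPARaDN against KP_PPARaDN, Clu ranged from −0.456 to 0.186 and Lcn2 from −1.81 to 0.204. In the difference, Clu ranged from −1.28 to 0.222 and Hp from −3.03 to 0.0556. With PPARaDN averaged, Cp ranged from −0.7 to 0.25, Hp from −1.36 to 0.185 and C1s1 from −0.204 to 0.367. With genotype averaged, Clu ranged from −0.297 to 0.451, C1ra from −0.633 to 0.00732, Cp from −0.557 to 0.291, Cfb from −0.619 to 0.303, Lcn2 from −0.471 to 0.535 and Saa3 from −0.465 to 0.212. The r of Lcn2 and Saa3 ranged from −0.595 to 0.365. At 2 to 93 counts per tumour, Saa3 is the member that depth limits most.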
